A study of Mus musculus with 3 samples.

Results

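Histone-modifying enzymes write and erase acetyl and methyl groups on the tails and cores of histones. They were followed here in the neocortex of 13-day-old mice. The members are the probe sets whose platform annotation gives exactly 1 gene symbol from the families of histone deacetylases (Hdac, Sirt), acetyltransferases (Kat, Ep300, Crebbp), lysine methyltransferases (Kmt, Setd, Setdb, Ehmt, Ezh, Suv39h, Nsd, Dot1l) and lysine demethylases (Kdm). Kdm5c and Kdm5d were not among them. The rule found 55 probe sets for 54 genes, of 14938 probe sets with 1 symbol and 23172 in all.

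Total neocortical RNA of 3 wild-type CD1 mice, an outbred stock, was taken at postnatal day 13 (P13), and each animal had 1 array. All animals belong to 1 group, with no other genotype, treatment or age to set them against, so the data give levels and the spread between animals. The labels do not pool animals and state no sex. Values are log2 of the deposited intensities, and the arrays' median intensities were 248.1 in mouse 1, 256.6 in mouse 2 and 230.6 in mouse 3. Differences in overall brightness between arrays remain in these values, so the order of the mice is also given after quantile normalization, which gives every array the same distribution, and after the median of each array was subtracted (arrays centred). In addition, the number of arrays limits their precision. The level of a probe set depends on its probes as well as on its RNA, so no gene is ranked against another. The RNA came from whole tissue, in which fewer cells of a type and less RNA per cell cannot be told apart. Of 10 neocortex marker genes listed, 7 had a probe set and all 7 were above the background limit defined next. Among them were the transcription factors Emx2 (7.61, 8.27 and 8.12 in mice 1 to 3), Neurod6 (10.24, 11.25 and 10.93) and Tbr1 (11.50 ± 0.11, mean and SD, n = 3 mice). Of 9 hindbrain and spinal cord genes listed, 6 had a probe set and 3 were above it, En1 (9.39 ± 0.10), Hoxb4 and Gbx2, while Hoxa2, Hoxb2 and Hoxc8 were under it, so lying above it does not prove expression.

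Acetyltransferases add acetyl groups to lysines, which loosens the hold of histones on DNA and recruits bromodomain proteins, and deacetylases remove them. Methyl groups are read by position: on H3K4 and H3K36 they mark active genes, on H3K9 and H3K27 silenced ones, and each position has its own writers and erasers. In the cortex these enzymes are known for their part in neuronal maturation, in gene responses to activity and in glial differentiation, and mutations in many of them cause human neurodevelopmental disorders.

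Almost every member gave a signal above background in every animal. Background was read from 951 probe sets of chemosensory receptors (olfactory, vomeronasal and trace amine), assumed here to be mostly silent in cortex. Their 95th percentile, taken per array, set the limit at log2 intensities of 6.86, 6.71 and 6.69. Of the receptor probe sets 31 were above this limit on all arrays. Of the 55 members 54 exceeded it on all arrays, and each of the 54 genes had a probe set that did. Among all single-symbol probe sets the share was 74.6%. The exception was 1 of the 2 probe sets of Setd1a, a subunit of an H3K4 methyltransferase complex. That probe set (6964354) stood at 4.82, 4.73 and 3.92 in mice 1 to 3. The other Setd1a probe set (6964352) stood at 9.36, 9.38 and 9.11, so the annotation ties the same gene to a value under the limit and to one above it. Kdm8, a JmjC-domain protein, was the member nearest to the limit among those above it, at 6.90, 7.27 and 6.86, and its smallest margin was 0.04. Kdm4d, an H3K9 demethylase best known from testis, was next at 7.17, 7.37 and 7.07, with a margin of 0.31. The other members above the limit cleared it by at least 0.99 on every array, the margin of Setd4.

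**Figure D1:**
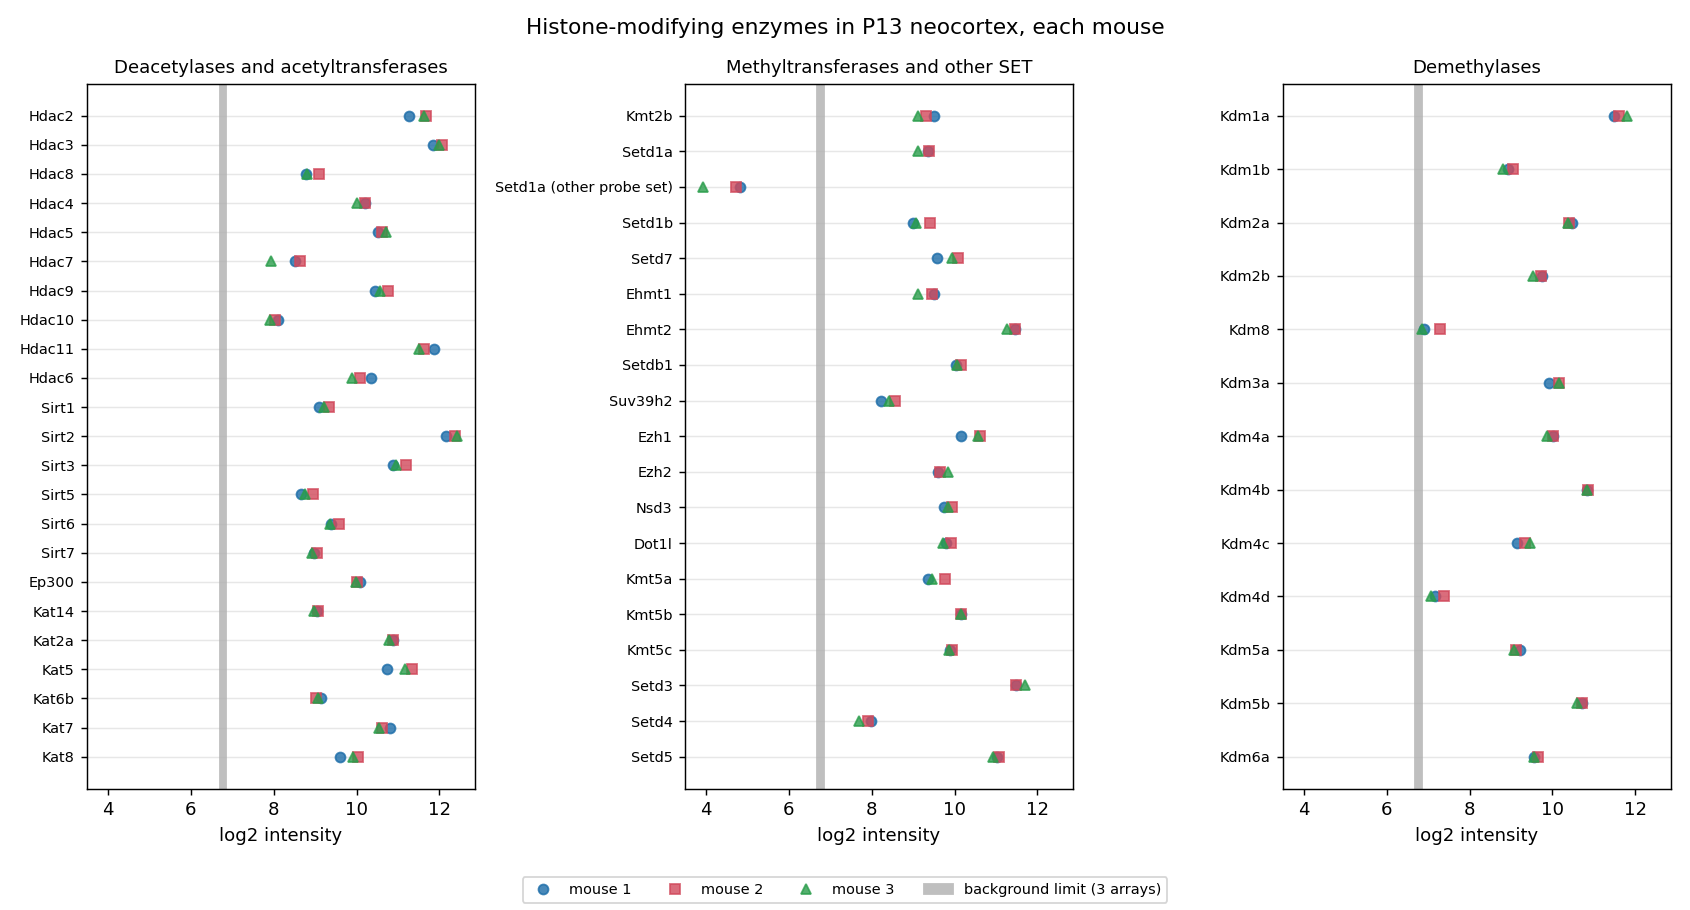
Log2 intensity (horizontal axis) of the 55 member probe sets, with 1 symbol per mouse. The grey band spans the background limits of the 3 arrays; 1 of the 2 Setd1a probe sets lies left of it, Kdm8 and Kdm4d lie close to its right edge, and the 3 mice nearly coincide for Kmt5b, Kdm4b and Kmt5c.

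All 3 measured class I deacetylases were highest in mouse 2 (against 59.5% of all single-symbol probe sets above the limit) and lowest in mouse 1 (against 53.4% of all) as deposited. With arrays centred all 3 were still lowest in mouse 1 (59.0% of all), and 2 of 3 were highest in mouse 3. After quantile normalization 2 of 3 were lowest in mouse 1 (41.2% of all), and 1 was highest in each mouse. Hdac2, a core subunit of the Sin3, NuRD and CoREST corepressor complexes, stood at 11.27 in mouse 1, 11.67 in mouse 2 and 11.62 in mouse 3, a 1.33-fold difference between the highest and the lowest mouse. Hdac3, the catalytic subunit of the NCoR complex, was at 11.97 ± 0.11, and the X-linked Hdac8 at 8.89 ± 0.18. Class IIa enzymes shuttle between cytoplasm and nucleus and bind MEF2 factors. Hdac4 was at 10.20, 10.20 and 10.01, with mice 1 and 2 alike and mouse 3 lower. Hdac5 ran the other way, at 10.52, 10.62 and 10.71. Hdac9 was at 10.58 ± 0.15. Hdac7, known from endothelium and thymus, stood at 8.50, 8.63 and 7.93. Its level in mouse 3 was below that in both other mice, and its 1.62-fold difference was the widest of the 54 members above the limit in the deposited values. Among the 12 members widest as deposited, Kat5 was wider than Hdac7 with arrays centred (0.55 against 0.54 on the log2 scale). After quantile normalization Hdac6 matched Hdac7 (both 0.52). Ranges under these scalings were taken only for those 12 and the 6 narrowest, so other members, such as Hdac11, were not compared.

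The class IIb enzymes Hdac6 and Hdac10 and the class IV enzyme Hdac11 were all 3 highest in mouse 1, as deposited and under both other scalings. All 3 were lowest in mouse 3 as deposited, where 35% of all single-symbol probe sets above the limit were. After quantile normalization 2 were (27.8% of all) and with arrays centred 1 was (16.6% of all), the other 2 then being lowest in mouse 2. Hdac6, a cytoplasmic deacetylase of tubulin encoded on the X chromosome, was at 10.35, 10.08 and 9.90 in mice 1 to 3. Hdac11, which is prominent in mature brain, was at 11.86, 11.63 and 11.51. Hdac10, a deacetylase of polyamines, was at 8.10, 8.04 and 7.91, a narrower difference of 1.14-fold against 1.37-fold for Hdac6 and 1.28-fold for Hdac11. Mouse 1 was highest for 25.5% of all single-symbol probe sets above the limit as deposited, 40.2% after quantile normalization and 23.4% with arrays centred.

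None of the 6 measured sirtuins, the NAD-dependent deacetylases, was highest in mouse 1 as deposited or with arrays centred, while 1 (Sirt7) was after quantile normalization (against 25.5%, 23.4% and 40.2% of all). Sirt1, the nuclear enzyme, was at 9.21 ± 0.12. Sirt2, a tubulin deacetylase abundant in oligodendrocytes, was at 12.32 ± 0.15. The mitochondrial Sirt3 and Sirt5 were at 11.01 ± 0.16 and 8.78 ± 0.15, and the chromatin-bound Sirt6 and Sirt7 at 9.44 ± 0.12 and 8.98 ± 0.06. The difference between the highest and the lowest mouse ran from 1.09-fold for Sirt7 to 1.24-fold for Sirt3.

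Among the acetyltransferases, 2 of 7 were lower in mouse 1 than in both other mice as deposited and under both other scalings, namely Kat5 and Kat8. Over all single-symbol probe sets above the limit the share lowest in mouse 1 was 53.4% as deposited, 41.2% after quantile normalization and 59.0% with arrays centred, all above 2 of 7. Ep300, a coactivator that acetylates H3K27 at enhancers, stood at 10.07, 10.02 and 9.98, a 1.06-fold difference. Kat6b, of the MOZ complex, was nearly as close at 9.14, 9.03 and 9.07. After quantile normalization their log2 ranges were wider, 0.24 against 0.09 as deposited for Ep300 and 0.26 against 0.11 for Kat6b. Kat2a, the catalytic subunit of SAGA, was at 10.85 ± 0.06 and Kat14, of the ATAC complex, at 9.03 ± 0.06. Kat7, the HBO1 enzyme, was at 10.65 ± 0.13. Kat5 (TIP60), the catalytic subunit of the NuA4 complex, stood at 10.74 in mouse 1, 11.34 in mouse 2 and 11.18 in mouse 3, a 1.52-fold difference. Kat8, which acetylates H4K16, was at 9.60, 10.04 and 9.92, again with mouse 1 apart from the other mice. Median SDs of such small groups rest on few genes, and that of the 7 acetyltransferases was 0.06.

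Of the H4K20 methyltransferases, Kmt5b and Kmt5c were among the members with the narrowest spread as deposited, while the H3K4 enzymes Setd7, Setd1b and Kmt2b differed more between the mice. Setd7, an H3K4 monomethyltransferase that also acts on other proteins, was at 9.58, 10.07 and 9.93, or 1.40-fold. Setd1b was at 9.003, 9.403 and 9.059, with mouse 2 above the other mice. Kmt2b, a mixed-lineage leukemia family enzyme, was at 9.50, 9.32 and 9.12, the reverse of Setd7 in mouse 1. As deposited Setd7 had the widest log2 range of these (0.49, against 0.40 for Setd1b and 0.38 for Kmt2b), and after quantile normalization Kmt2b had (0.42, against 0.32 for Setd7 and 0.25 for Setd1b). On H4K20, Kmt5b, which makes the dimethyl mark, stood at 10.15, 10.17 and 10.16. Its 1.01-fold difference was the narrowest of the 54 as deposited. Its paralog Kmt5c was at 9.90, 9.93 and 9.88. Kmt5a, which makes the monomethyl mark, was at 9.36, 9.77 and 9.46, so it did not share the narrow spread of the others as deposited. After quantile normalization the log2 ranges were closer, 0.24 for Kmt5a, 0.19 for Kmt5b and 0.16 for Kmt5c. Dot1l, the H3K79 methyltransferase, was at 9.81 ± 0.09 and Nsd3, of the H3K36 enzymes, at 9.84 ± 0.09.

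Writers of the silencing marks also differed among themselves. Ehmt1 and Ehmt2 (GLP and G9a) form the dimer that makes H3K9 dimethylation, and both were highest in mouse 1 and lowest in mouse 3 under every scaling. Of all single-symbol probe sets above the limit, 25.5% were highest in mouse 1 and 35% lowest in mouse 3 as deposited. These shares were 40.2% and 27.8% after quantile normalization, and 23.4% and 16.6% with arrays centred. Ehmt1 was at 9.51, 9.46 and 9.12, and Ehmt2 at 11.40 ± 0.11. Setdb1 and Suv39h2, which make H3K9 trimethylation, were at 10.09 ± 0.07 and 8.40 ± 0.17. Both were lowest in mouse 1 as deposited (against 53.4% of all), Setdb1 no longer so after quantile normalization. Ezh1 and Ezh2 are the alternative catalytic subunits of Polycomb repressive complex 2, Ezh2 being typical of dividing cells and Ezh1 of mature ones. Ezh1 was at 10.16, 10.61 and 10.57, and Ezh2 at 9.60, 9.66 and 9.85. Both Ezh1 and Ezh2 were lowest in mouse 1 as deposited (against 53.4% of all), and 1 of 2, Ezh1, after quantile normalization (41.2% of all). As deposited mouse 1 was below the highest mouse by 1.37-fold for Ezh1 and 1.19-fold for Ezh2. The other SET-domain genes measured were Setd3, an actin histidine methyltransferase, at 11.56 ± 0.13, Setd4 at 7.86 ± 0.16 and Setd5 at 11.01 ± 0.08.

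Of the 13 demethylases 9 were lowest in mouse 3 as deposited, where 35% of all single-symbol probe sets above the limit were, but 4 after quantile normalization (27.8% of all) and 1 with arrays centred (16.6% of all). Kdm1a (LSD1), the flavin-dependent H3K4 demethylase of the CoREST complex, was not among the 9. It stood at 11.48, 11.60 and 11.81, with mouse 1 at the low end and mouse 3 at the high end, while its paralog Kdm1b was at 8.93 ± 0.12. The H3K36 demethylases Kdm2a and Kdm2b were at 10.41 ± 0.05 and 9.67 ± 0.12. Kdm2a, at 10.47, 10.41 and 10.36, was among the 6 members with the narrowest differences as deposited, with a log2 range of 0.10, but 0.25 after quantile normalization. Kdm3a, an H3K9 demethylase, was at 10.08 ± 0.14. Of the Kdm4 family, which acts on H3K9 and H3K36, Kdm4a was at 9.96 ± 0.08 and Kdm4c at 9.31 ± 0.16. Kdm4b stood at 10.83, 10.87 and 10.85, a 1.03-fold difference that widened on the log2 scale to 0.17 after quantile normalization, against 0.04 as deposited. The H3K4 demethylases Kdm5a and Kdm5b were at 9.14 ± 0.08 and 10.68 ± 0.07. Kdm6a (UTX), an X-linked H3K27 demethylase that escapes X inactivation, was at 9.56, 9.66 and 9.55, with all mice alike within 1.08-fold. Eif2s3y, the 1 measured gene of 4 sex-linked genes listed, was under the limit on all arrays.

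No member passed a test for more difference between the animals than probe sets of its level show. The test compares the variance of each probe set over the mice with a distribution fitted over all 13811 probe sets above the limit (limma, robust prior with a trend on level). At a Benjamini-Hochberg adjusted p under 0.05 it called 0 of 54 members and 0.0652% of all probe sets tested. At an unadjusted p under 0.05 it called 0 members, where 5.21% of all were called. The smallest adjusted p of a member in limma's test was that of Kat5 (adjusted p = 0.971), and Hdac7, with the wider difference at a lower level, had an adjusted p of 0.980. With 3 mice such a test can miss real differences, so a count of 0 does not show that the members were equal. Among probe sets of like level the SD of Kat5 lay at the 93.9th percentile, that of Hdac7 at the 91.3rd and that of Setd7 at the 84.9th.

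The members as a list varied less between animals than the typical gene. Their median SD was 0.13 on the log2 scale, against 0.16 for single-symbol probe sets above the limit (0.12 against 0.13 after quantile normalization). The median difference between the highest and the lowest mouse was 1.18-fold against 1.24-fold. An SD over 0.3 was found for 2 of 54 members, Hdac7 and Kat5, or 3.70%, against 11.4% of all. A difference over 1.2-fold was found for 24 members, or 44.4%, against 59.8% of all. Ranked among probe sets of like level, in 20 bins, the SD of the median member lay at the 36.5th percentile. These counts describe the list and are no test.

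**Figure D2:**
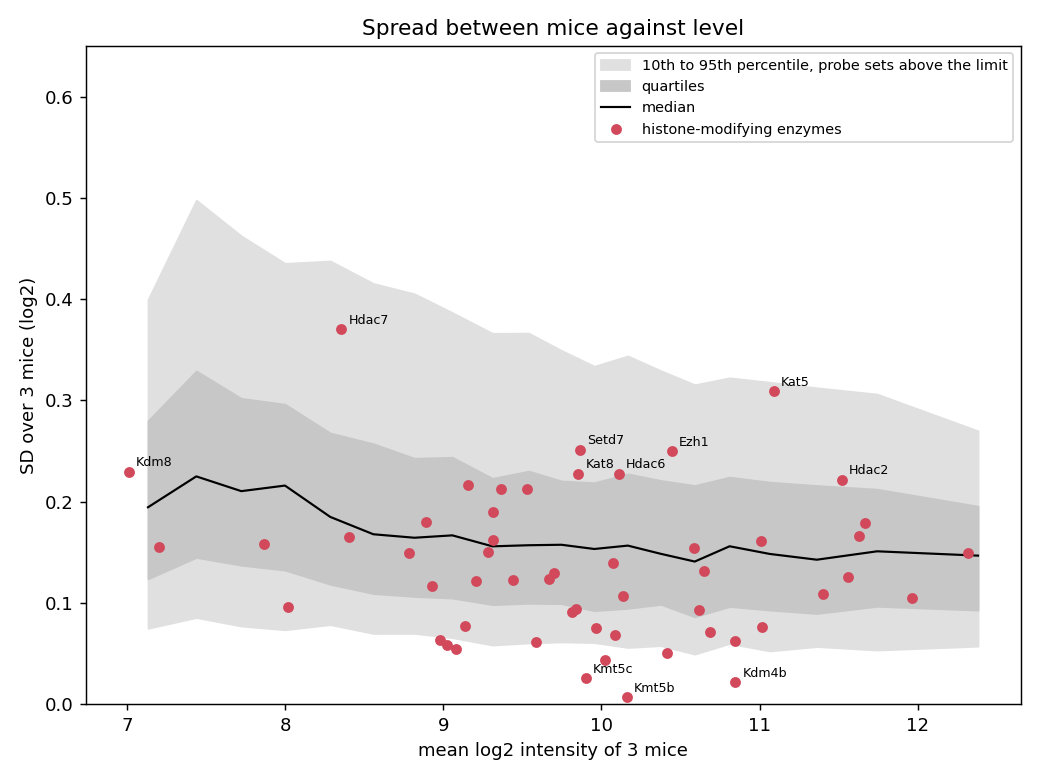
SD over the 3 mice (vertical axis, log2) against mean log2 intensity (horizontal axis) for the 54 members above the limit, over the spread of all 13811 probe sets above it. Hdac7 and Kat5 have the 2 highest SDs, and Kmt5b, Kdm4b and Kmt5c lie under the 10th percentile of their level.

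Against the mean of the mice, the median member was -0.02 in mouse 1, 0.07 in mouse 2 and -0.05 in mouse 3, against -0.07, 0.10 and -0.02 for all single-symbol probe sets above the limit. Of the 54 members 33 were highest in mouse 2 (61.1%, against 59.5% of all). Lowest in mouse 1 were 24 (44.4%, against 53.4% of all), and lowest in mouse 3 were 28 (51.9%, against 35% of all). The order of mouse 1 over mouse 2 over mouse 3 held for 14 members (25.9%, against 17.4% of all). These were Hdac6, Hdac10, Hdac11, Ep300, Kat7, Kmt2b, Ehmt1, Ehmt2, Setd4, Kdm2a, Kdm2b, Kdm4a, Kdm5a and Kdm5b. Under the other scalings these counts moved: highest in mouse 2 were 12 of 54 after quantile normalization and 13 with arrays centred, and lowest in mouse 3 were 17 and 9. Lowest in mouse 1 were 17 after quantile normalization (31.5%, against 41.2% of all) and 30 with arrays centred (55.6%, against 59.0% of all). In the deposited values the opposite order, of mouse 3 over mouse 2 over mouse 1, held for 5 (9.26%, against 11.4% of all), namely Hdac5, Sirt2, Ezh2, Kdm1a and Kdm4c.

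Since the arrays differ in brightness with level, each deviation was also taken relative to the median of probe sets of like level. On that scale the members' median was 0.05 in mouse 1, -0.02 in mouse 2 and -0.02 in mouse 3, against 0.00 in each mouse for all. Highest in mouse 1 were then 28 of 54 members (51.9%, against 39.7% of all) and lowest in it 17 (31.5%, against 40.9%). In mouse 1, Hdac11 stood 0.34 and Hdac6 0.33 above genes of like level, followed by Kmt2b (0.25), Kat7 (0.22) and Ehmt1 (0.21). At the other end were Kat5 (-0.23), Setd7 (-0.20), Ezh1 (-0.19), Kdm8 (-0.19) and Kat8 (-0.18). The narrow spread of Kmt5b did not carry over to this scale, on which it stood at 0.08, -0.10 and 0.02 in mice 1 to 3, since genes of its level were not equal across the arrays.

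**Figure D3:**
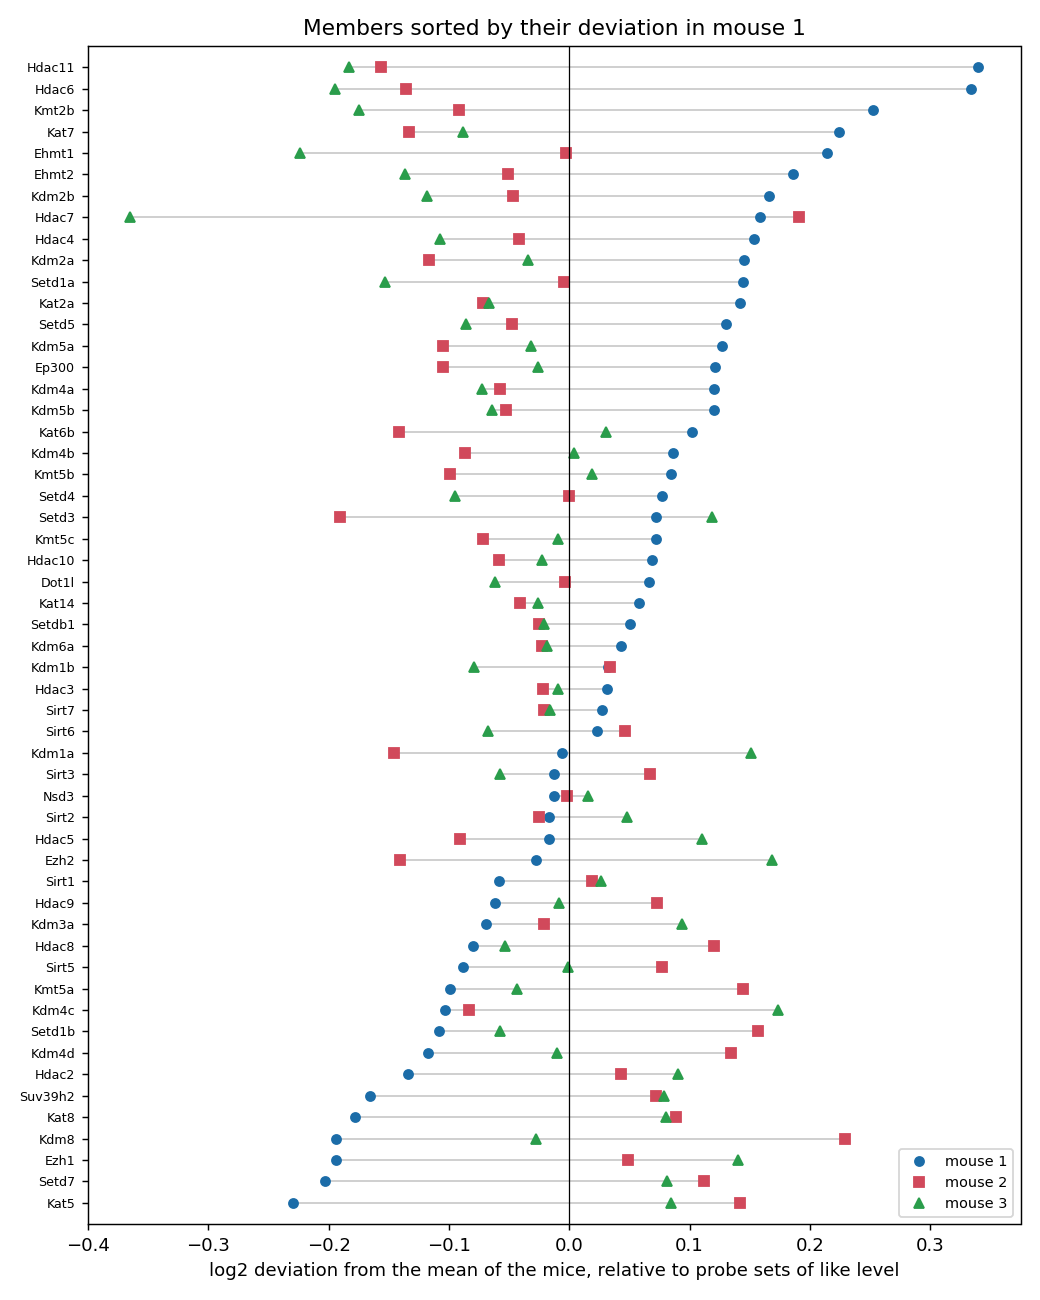
Log2 deviation of each mouse from the mean of the mice, relative to probe sets of like level (horizontal axis), for the 54 members above the limit sorted by mouse 1. Mouse 1 runs from 0.34 for Hdac11 to -0.23 for Kat5, and Hdac7 reaches -0.36 in mouse 3.

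Neighbouring genes did not follow a common order in the deposited values. Kdm2b and Setd1b lie on the same chromosome with 4 protein-coding genes between them in the RefSeq annotation of GRCm38, yet Kdm2b was lowest in mouse 3 (9.76, 9.72 and 9.53) and Setd1b was lowest in mouse 1. Setd1a and Kat8 have 8 protein-coding genes between them, and the Setd1a probe set above the limit was lowest in mouse 3 and Kat8 in mouse 1. Sirt5 and Kdm1b, with 18 between them, were both highest in mouse 2, Sirt5 being lowest in mouse 1 and Kdm1b in mouse 3.

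Most members have CpG-rich promoters, a feature the choice of genes did not use. RefSeq promoters of build GRCm38.p6, from 250 bases before to 50 after the start, were matched for 46 of the 54 genes, taking the first start listed where a gene had several (14 genes). The ratio of observed to expected CpG exceeded 0.6 in 40 of 46 (87.0%), against 69.1% of 8917 genes above the limit and 36.4% of all 27025 genes. With any start of a gene counted it was 41 of 46 (89.1%), against 73.1% of genes above the limit. The 6 members at or under 0.6 were Hdac8, Hdac9, Kat8, Kdm4c, Setd5 and Sirt5. The median GC content was 60.8%, against 60.7% for genes above the limit.

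Short motifs were searched on both strands. The GC box GGGCGG was found in 28 of 46 promoters (60.9%, against 63.6% of genes above the limit). The ETS motif CCGGAAG was found in 10 (21.7%, against 15.9%) and the CCAAT box, read as CCAAT, in 21 (45.7%, against 38.3%). A match is a description of the letters and not a binding site.

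By the first start listed, 2 members had no CpG, Hdac9 and Kdm4c. The other listed start of Kdm4c has 28 CpGs (ratio 0.89) and that of Hdac9 has 3 (0.20). Promoters are shown for the members with the widest and the narrowest difference between mice, for the one nearest to the limit and for Hdac9. They were picked so that differences in CpG content can be seen. Each reads 5′ to 3′ on the gene's strand, and capitals mark CpG.
Hdac7, chr15:97831446-97831745, minus strand: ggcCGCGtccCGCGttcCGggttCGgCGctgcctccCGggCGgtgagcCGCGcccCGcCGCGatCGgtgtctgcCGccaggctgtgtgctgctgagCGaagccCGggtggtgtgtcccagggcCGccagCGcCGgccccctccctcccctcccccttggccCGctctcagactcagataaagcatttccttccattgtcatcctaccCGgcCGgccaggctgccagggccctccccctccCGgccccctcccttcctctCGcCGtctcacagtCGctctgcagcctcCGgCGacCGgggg
Kmt5b, chr19:3767171-3767470, plus strand: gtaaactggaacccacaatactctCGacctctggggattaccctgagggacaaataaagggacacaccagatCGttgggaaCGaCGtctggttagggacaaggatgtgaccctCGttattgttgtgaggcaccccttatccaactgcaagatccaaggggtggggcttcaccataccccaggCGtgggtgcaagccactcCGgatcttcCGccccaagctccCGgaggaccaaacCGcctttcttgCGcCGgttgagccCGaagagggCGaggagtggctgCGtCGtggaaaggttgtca
Kdm8, chr7:125444370-125444669, plus strand: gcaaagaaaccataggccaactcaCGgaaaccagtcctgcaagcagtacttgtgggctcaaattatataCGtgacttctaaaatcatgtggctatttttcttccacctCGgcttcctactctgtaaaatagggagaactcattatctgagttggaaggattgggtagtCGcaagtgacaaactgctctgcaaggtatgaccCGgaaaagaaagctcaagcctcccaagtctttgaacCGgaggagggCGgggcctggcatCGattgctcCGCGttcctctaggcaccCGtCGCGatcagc
Hdac9, chr12:34917046-34917345, minus strand: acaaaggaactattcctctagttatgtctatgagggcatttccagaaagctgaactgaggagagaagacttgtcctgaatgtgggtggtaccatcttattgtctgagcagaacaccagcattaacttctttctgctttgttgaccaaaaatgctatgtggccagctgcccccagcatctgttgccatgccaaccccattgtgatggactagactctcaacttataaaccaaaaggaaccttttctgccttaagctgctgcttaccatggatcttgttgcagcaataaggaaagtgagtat
The Hdac7 window holds 31 CpGs (ratio 0.79), that of Kmt5b 16 (0.65), that of Kdm8 13 (0.69) and that of Hdac9 0. Hdac7 and Kmt5b, at the 2 ends of the spread between mice as deposited, both have CpG-rich windows as shown. However, Hdac7 has 4 listed starts, whose ratios were 0.79, 1.09, 0.28 and 0.18. The other listed start of Kmt5b has 38 CpGs (ratio 1.00). Kdm8 lies close to the limit with a CpG-rich window, while Hdac9, with none, was well above it at 10.45, 10.75 and 10.56. In these 4 windows no motif match overlapped another.

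**Figure D4:**
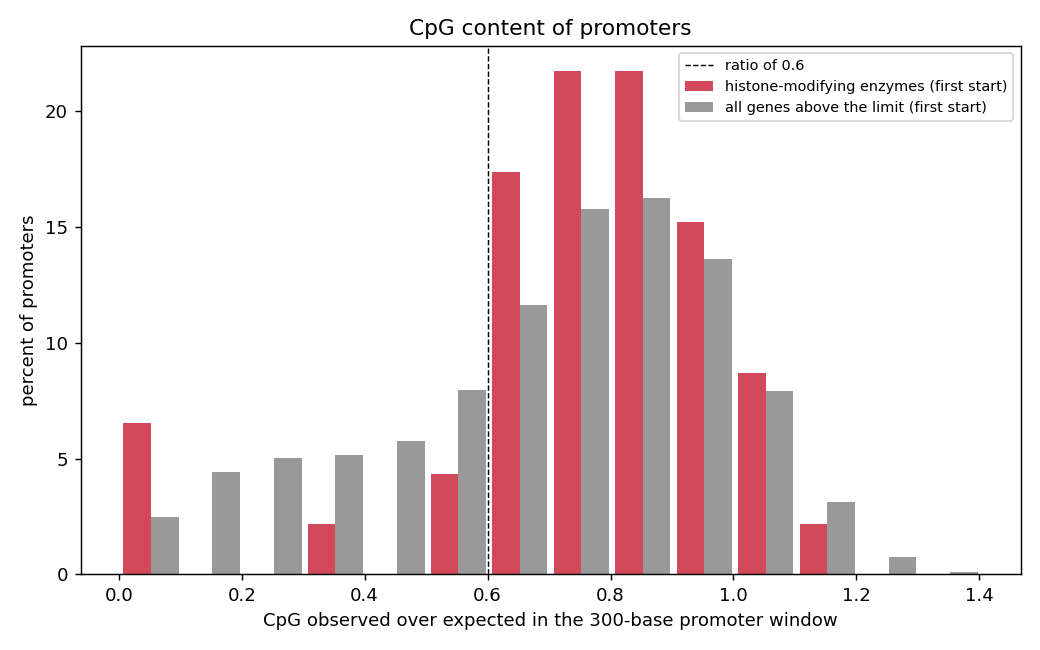
Share of promoters (vertical axis, percent) by CpG observed over expected (horizontal axis, bins of 0.1) for 46 members and for 8917 genes above the limit, 1 start a gene. Of the members 3 (Hdac9, Kdm4c and Setd5) lie in the lowest bin and 40 lie above 0.6.

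The partners of these enzymes were measured as well, from written lists of complex subunits and of other histone enzymes. Of 119 such genes 102 had a single-symbol probe set and 100 of these had at least 1 above the limit. By probe set it was 101 of 103, against 74.6% of all single-symbol probe sets. None of the partner genes passed the excess-variance test (against 0.0652% of all probe sets tested), and their median SD was 0.14. All 7 listed subunits of Polycomb repressive complex 2 beside Ezh1 and Ezh2 were above the limit, among them Eed (8.80 ± 0.26), Suz12 (9.40 ± 0.15) and Jarid2 (10.09 ± 0.13). Of the NuRD complex, the chromatin remodelling partner of class I deacetylases, 11 of 11 measured subunits were above it, with Mta1 at 11.23 ± 0.13, Mta2 at 10.77 ± 0.15 and Mta3 at 10.39 ± 0.14. Of the Sin3 complex 12 of 12 were above it, with Sin3a at 9.82 ± 0.06, Sin3b at 10.50 ± 0.10 and Sap18 at 8.73 ± 0.16. In this list, which holds partners of class I deacetylases, 11 of 12 were lowest in mouse 1 as deposited (against 53.4% of all). With arrays centred it was again 11 of 12 (59.0% of all), and after quantile normalization 8 of 12 (41.2% of all). Other lists with class I partners varied, with 7 of 11 lowest in mouse 1 as deposited for NuRD and 2 of 7 for CoREST. In the NCoR and SMRT list it was 3 of 3. Over all partner lists it was 59 of 101 probe sets above the limit. The CoREST partners of Kdm1a, 7 of 7 above the limit, included Rcor1 (9.96 ± 0.16), Rcor2 (9.43 ± 0.11) and Rcor3 (8.63 ± 0.19).

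In the remaining lists most genes were also above the limit. All 3 measured genes of the NCoR and SMRT list (Tbl1x 10.61 ± 0.05, Tbl1xr1 10.72 ± 0.08, Cops2 10.64 ± 0.29) and all 8 of the COMPASS list (Ash2l 11.54 ± 0.23, Rbbp5 9.78 ± 0.13, Dpy30 10.63 ± 0.22) were above the limit. So were 18 of 18 genes of SAGA and NuA4 (Trrap, Tada1 10.93 ± 0.18, Tada2a 9.82 ± 0.20) and 13 of 13 of the MOZ, HBO1 and MSL complexes (Brpf1 9.02 ± 0.16, Brpf3 8.20 ± 0.34, Ing4 10.75 ± 0.24). Trrap, the large scaffold that SAGA shares with NuA4, had probe sets at 10.08 ± 0.16 and 10.76 ± 0.22, which disagreed in order: the first was highest in mouse 1 and the other lowest in it. Of 23 other histone enzymes 21 were above the limit, with Smyd1 at 8.91 ± 0.07 and Smyd2 at 11.49 ± 0.21. Under it on every array was Prdm9, the meiotic H3K4 methyltransferase, at 6.31 ± 0.16, and Mecom was above it on 2 arrays, at 7.41, 6.85 and 6.68. Setmar, at 7.49, 8.54 and 8.31, had an adjusted p of 0.760 in limma's variance test.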

How the data were processed

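Biotin-labelled targets of the Affymetrix whole-transcript sense assay were hybridised to 1 array per mouse, per the labels' protocols. The authors deposited 1 intensity per probe set and mouse, on a linear scale. The submitters' processing notes name Affymetrix Power Tools and mm8, with how background, scaling and summary were handled not given in the sources used here. Log2 of each intensity was taken with no pseudocount. Of 23172 probe sets 14938 carry 1 gene symbol, 989 carry several and 7245 have no name here. All 55 member probe sets matched RefSeq (GRCm38) by Entrez ID, with unchanged symbols. Probe sets naming Kat2b or Setd6 beside another symbol were left out.

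The variance test used limma 3.58.1 (fitFDistRobustly, trend on mean level, Benjamini-Hochberg adjustment over probe sets above the limit) in R 4.3.3 and was tested on simulated data. Other values were computed with Python 3.11.15. Every member is named. Values in each mouse are given for the 12 widest and 6 narrowest ranges, for members under the limit and for a written list of well-known enzymes, and for Hdac10, Kdm4d, Kdm2b and Hdac9, chosen after their values were seen. The first 3 measured genes of each partner list are named, with those not above the limit. The members and lists were chosen with earlier results of these data known. Hdac1, Crebbp, Kmt2a, Kmt2d, Nsd1 and Kdm6b were not analysed here.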

Additional observations from a re-analysis of the deposited data

How the results depend on the processing

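The number of members above the limit was 54 under 8 of the alternatives and 56 with the probe sets of several symbols added. With the limit at the 99th percentile it was 51 (without Kdm8, Kdm4d and Setd4). With receptor probe sets of 1 symbol, an alternative chosen after seeing the data, it was 53, without Kdm8. Of all single-symbol probe sets 61.1% were above the limit at the 99th percentile and 74.7% after quantile normalization, against 74.6% in the main setting. No setting of the variance test called a member, and the smallest adjusted p of a member ranged from 0.832 to 0.994 over the 12 alternatives (limma). Of all probe sets tested it called 2 of 13817 after quantile normalization and 26 of 14101 without mouse 1. At an unadjusted p under 0.05 it called 1 of 54 members after quantile normalization (Hdac11) and 1 of 54 without mouse 1 (Hdac7). With all mice as deposited 5.21% of all were called at that level, a share not computed for these 2 settings. The order of the mice depended on scaling. The count highest in mouse 2 was 12 after quantile normalization (22.2%, against 32.1% of all) and 13 with each array centred on its median (24.1%, against 31.5%). The count lowest in mouse 3 was 17 and 9 in these settings (31.5% and 16.7%, against 27.8% and 16.6% of all). Leaving out each mouse in turn gave 29 to 47 lowest in mouse 3 and 25 to 38 lowest in mouse 1, where fewer mice are compared. By pairs, 38 of 54 members were higher in mouse 2 than in mouse 1, as were 71.0% of all. In mouse 3, 25 were higher than in mouse 1 (57.0% of all) and 7 higher than in mouse 2 (23.0% of all). The median SD of members was 0.12 after quantile normalization, with arrays centred, and with level-dependent offsets removed, against 0.13, 0.16 and 0.13 for all, so the gap to all genes narrowed in the first and the last. Without single mice it ran from 0.09 to 0.10. Leaving out the highest or the lowest mouse must narrow a range, and the size of the drop differed between members. The range of Hdac7 was 0.12 on the log2 scale without mouse 3, against 0.69 with all, and that of Kat5 was 0.17 without mouse 1, against 0.60. That of Hdac6 was 0.27 without mouse 3 and 0.18 without mouse 1, against 0.45. The range of Kmt5b was 0.19 after quantile normalization, against 0.01 in the deposited values. No paired analysis was possible because there is 1 group.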
